A study of Mus musculus with 8 samples.

Results

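The translation initiation and elongation factors are the proteins that bring ribosome, initiator tRNA and mRNA together and then move the ribosome along the message. Their genes were taken as all protein-coding genes of the GENCODE M21 annotation whose symbol begins with Eif1 to Eif6 or with Eef1 or Eef2, without the Eif2ak kinases. Predicted copies were left out, which gave 64 of the 29621 genes measured. RNA came from whole pancreas of C57BL/6 mice at postnatal day 42, and both groups carried p48-Cre and Trp53fl/fl together with an oncogenic allele activated by Cre. The p48 (Ptf1a) locus drives Cre in the pancreatic epithelial lineage, so stroma and immune cells keep their own alleles. The KPC group (4 libraries) had no further allele, and the KPC-OG group (4 libraries) also had R26tm1(LSL-OG), an allele at the R26 locus that Cre switches on in the same cells. The comparison asked how the pancreas differed between mice with and without the OG allele. The labels do not say that each library came from another mouse. The p-values therefore rest on the spread among the libraries, which may in part be technical. In each group the Y-linked genes Eif2s3y and Ddx3y were nearly absent in some libraries and not in others. No group thus came from a single mouse.

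In cap-dependent initiation, eIF4F binds the cap and unwinds the 5′ end of the mRNA, eIF2 brings the initiator tRNA, and eIF1, eIF1A, eIF3 and eIF5 hold the small ribosomal subunit ready until the start codon is found. eIF5B then joins the large subunit, after which eEF1A delivers each aminoacyl-tRNA and eEF2 translocates the ribosome. Acinar cells of the pancreas are among the busiest protein-making cells of the body, and they adjust this machinery through mTORC1, which acts on the eIF4E binding proteins, and through kinases of eIF2, which block its recharging by eIF2B.

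The KPC libraries held 7373286 to 11292570 estimated reads, and the KPC-OG libraries 13671606 to 18292115. Reads assigned to a single gene, Lars2, held 20.8% to 29.95% of the gene-level total in KPC libraries and 3.73% to 7.11% in KPC-OG libraries. All 9 acinar markers were detected, and their summed level, in counts per 1e6 reads after scaling by the trimmed mean of M-values (TMM-scaled CPM), was 205316 to 385924 in KPC and 32167 to 98233 in KPC-OG, without overlap. The summed level of 6 duct markers was 112 to 168 CPM in KPC and 309 to 616 CPM in KPC-OG, that of 6 fibroblast markers 944 to 1263 CPM and 1588 to 4539 CPM, and that of 6 macrophage markers 106 to 232 CPM and 274 to 364 CPM. Libraries KPC-OG 2 and KPC-OG 3 held liver transcripts, with a sum of 246 and 286 CPM over 6 markers against 14.1 to 27.9 CPM in the other 6 libraries. KPC-OG 3 stood apart from its group with the highest acinar and the lowest fibroblast level of the 4 KPC-OG libraries. Fewer cells of a type and less RNA per cell cannot be told apart in whole tissue, and the part of cell composition in the results below was not tested.

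Relative to the typical gene, the factors were more often lower than higher in KPC-OG. Of 62 members that passed the filter on low counts, 26 were lower, 2 were higher and 34 did not pass (edgeR quasi-likelihood test, adjusted p under 0.05 over all 14267 genes). That is 41.9% lower and 3.23% higher, against 16.6% of all tested genes called lower and 17.4% called higher. The median log2 fold change, KPC-OG over KPC, was -0.38 over the members and 0.09 over all tested genes. Eef1a2 and Eif4ebp3 were the members that did not pass the filter. In TMM-scaled CPM the groups did not overlap for 30 lower and 5 higher members among those tested, where 17.0% and 17.6% of all tested genes did not overlap in these directions. Without KPC-OG 2 and KPC-OG 3, 21 of 63 tested members were called lower and 2 higher, against 12.3% and 14.7% of all genes, and 21 of the 28 calls were kept.

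**Figure D1:**
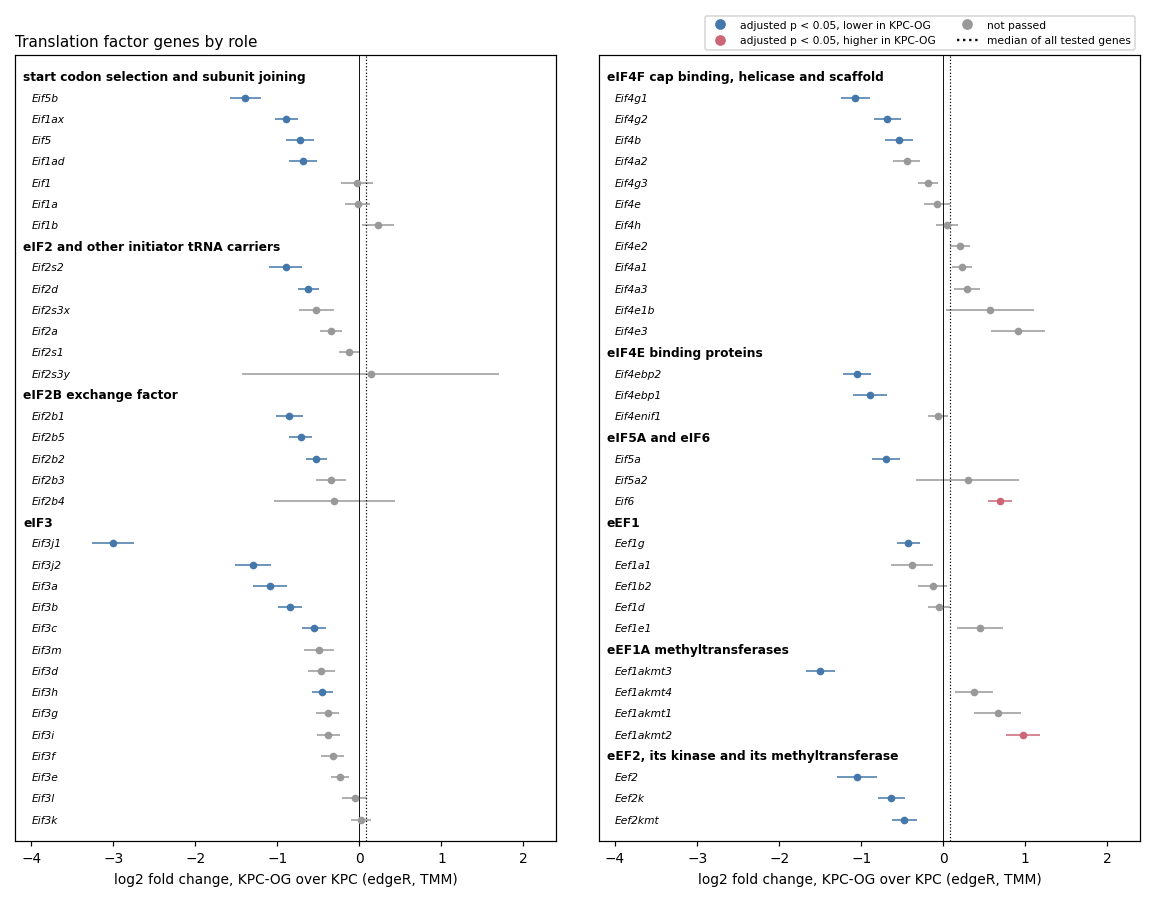
Log2 fold change (KPC-OG over KPC, edgeR with TMM scaling) of the 62 tested genes, grouped by role, as points with standard errors; blue points were called lower, red points higher and grey points did not pass. Most points lie left of the dotted line, the median of all tested genes at 0.09, and the 2 red points are Eif6 and Eef1akmt2.

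The direction belongs to the scale. As a share of all gene-level reads the 64 genes held 0.562%, 0.547%, 0.551% and 0.611% in KPC 1 to KPC 4, and 1.31%, 1.44%, 0.860% and 1.56% in KPC-OG 1 to KPC-OG 4. Every KPC-OG library lay above every KPC library on that scale, also with Lars2 left out of the total (0.691% to 0.788% against 0.921% to 1.68%). In TMM-scaled CPM the sum was 11644, 8378, 10322 and 10855 in KPC and 7184, 6510, 7553 and 6867 in KPC-OG, so the order was turned around. With library sizes alone the median of all tested genes lay 1.74 log2 units higher than with TMM, and 56 members (90.3%) were called higher and 1 lower, where 91.7% of all genes were called higher and 0.694% lower. These member counts are at the level of all genes and follow from the scale. Re-centred on the median gene, the same libraries gave 17 lower and 0 higher members (edgeR, with 2 members higher at an unadjusted p under 0.05), where 6.38% of all genes were called higher and 9.32% lower. Deposited TPM, re-centred in the same way, gave 13 lower and 0 higher members with a pseudocount of 0.1 (limma, 2 higher at an unadjusted p under 0.05). That is 20.97% of members lower, against 7.17% of all genes lower and 4.11% higher. With a pseudocount of 1, 8 members were lower and 1 higher (limma). That is 12.9% of members lower, close to the 11.2% of all genes called lower, with 6.90% of all genes called higher, so in this setting the members did not stand out from all genes. The log2 fold changes below are relative to the typical gene throughout. Levels given below in TPM were not re-centred.

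**Figure D2:**
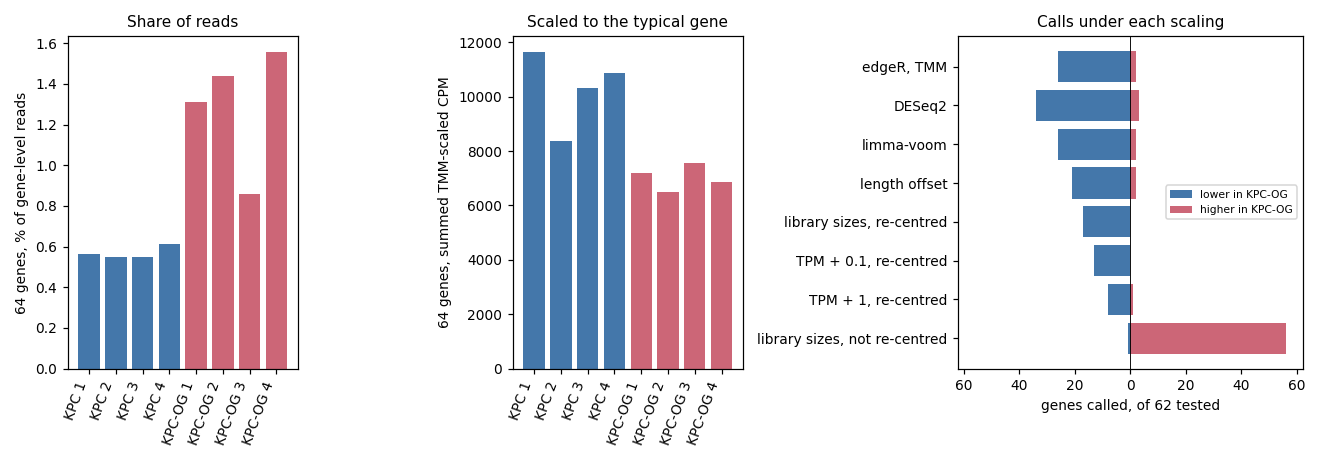
Left, share of gene-level reads held by the 64 genes in each library (%); middle, their summed TMM-scaled CPM; right, number of genes called lower (left bars) or higher (right bars) of 62 tested under each scaling or tool. The KPC-OG bars are higher on the left panel and lower on the middle panel, and the calls turn from 26 lower to 56 higher when libraries are not re-centred.

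Of the 28 called members, 8 kept their call under each of the 20 alternatives other than library sizes alone, and all 8 were lower in KPC-OG: Eef2, Eif4g1, Eif3a, Eif5b, Eif4ebp2, Eif3j1, Eif3j2 and Eef1akmt3. With library sizes alone, where all genes shift, 3 of the 28 calls were kept and 22 were called in the opposite direction.

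eEF2, the GTPase that moves the ribosome by one codon, was encoded by one of the most abundant of these mRNAs. On the per-length TPM scale Eef2 went from 555 ± 63.7 (SD, n = 4) to 832 ± 187 (SD, n = 4, KPC-OG), behind Eef1a1 at 2652 ± 242 and 6316 ± 2254. In TMM-scaled CPM, Eef2 (ENSMUSG00000034994, chromosome 10, 81176631 to 81182498, GRCm38) was 2575, 1544, 2178 and 2425 in KPC and 1121, 936, 1156 and 1005 in KPC-OG. All 4 KPC-OG libraries lay below the lowest KPC library. It fell by 1.05 ± 0.25 on the log2 scale (edgeR adjusted p = 0.00911), a level 2.07-fold lower in KPC-OG. Of its 20-base words, 39.7% also occur in transcripts of other genes (21.9% in the predicted copy Gm13050), so part of its reads cannot be told apart from theirs.

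The kinase and the methyltransferase of eEF2 were lower as well. Eef2k, which phosphorylates eEF2 and so slows elongation, was 47.4, 28.9, 30.3 and 34.1 CPM in KPC and 23.9, 20.8, 21.9 and 24.1 CPM in KPC-OG, without overlap, and fell by 0.63 ± 0.16 (edgeR adjusted p = 0.013). Eef2kmt, which methylates a lysine of eEF2, fell by 0.47 ± 0.15 (edgeR adjusted p = 0.0325) from 13.4 ± 0.966 to 9.65 ± 1.49 CPM (SD, n = 4). Neither call held with TPM, with library sizes re-centred or with an offset for transcript length. That of Eef2k was also lost without KPC-OG 2 and KPC-OG 3 together, and that of Eef2kmt without a filter on low counts and when any single library other than KPC 2 and KPC-OG 3 was left out (adjusted p up to 0.0925).

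Of the 6 genes named for eEF1, 1 was lower, 4 did not pass and 1 was not tested. That is 20% of those tested, near the 16.6% of all tested genes called lower. Eef1a1, which encodes the GTPase that carries aminoacyl-tRNA and is the most abundant of these proteins in most tissues, was 4643, 3533, 4318 and 4655 CPM in KPC and 3225, 3066, 3541 and 3381 CPM in KPC-OG. The groups overlapped by a narrow margin, between KPC 2 and KPC-OG 3, and the difference did not pass (log2 fold change -0.38 ± 0.26, edgeR adjusted p = 0.282). DESeq2 called Eef1a1 lower. Of its 20-base words, 50.8% also occur in other genes (39.9% in Gm13456), so its reads are in part shared with theirs. Of the exchange factor subunits, Eef1b2 had -0.13 ± 0.18 and Eef1d -0.05 ± 0.13, and neither passed. Eef1g, the scaffold subunit, was the member of this group that fell, from 303, 259, 264 and 271 CPM to 229, 192, 208 and 189 CPM (-0.42 ± 0.14, edgeR adjusted p = 0.0441). That call was lost without any single library other than KPC-OG 3 (adjusted p up to 0.124), with library sizes re-centred, with TPM, with no filter, with a length offset and without KPC-OG 2 and KPC-OG 3. Of the 20-base words of Eef1g, 39.5% also occur in other genes. Eef1e1, whose protein sits in the multi-synthetase complex, had 0.45 ± 0.28 and did not pass. Eef1a2, the muscle and nerve form of eEF1A, had 0, 1, 1 and 1 reads in the KPC libraries and 22, 7, 4 and 17 in the KPC-OG libraries. The KPC-OG libraries were deeper, and in TMM-scaled CPM the groups overlapped (0 to 0.265 in KPC, 0.181 to 0.670 in KPC-OG). The 6 skeletal muscle markers summed to 14.9 CPM in KPC-OG 1, the library with the most Eef1a2 reads, and to 0.376 to 2.32 CPM in the other libraries. KPC-OG 4, with 17 Eef1a2 reads, was at 2.32 CPM, and a link was not tested.

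The methyltransferases that modify lysines of eEF1A moved apart. Eef1akmt3 was 17.6, 13.3, 15.4 and 17.1 CPM in KPC and 5.94, 4.48, 7.14 and 5.03 CPM in KPC-OG, with every KPC-OG library below every KPC library (-1.50 ± 0.18, edgeR adjusted p = 6.65e-04). Eef1akmt2 was 2.86, 2.63, 2.92 and 3.04 CPM in KPC and 6.30, 6.17, 4.39 and 5.60 CPM in KPC-OG, with the opposite order. It rose by 0.97 ± 0.21 (edgeR adjusted p = 0.00554), a level 1.97-fold higher. These levels rest on 11 to 18 reads in each KPC library and 67 to 238 in KPC-OG, and the Eef1akmt2 call was lost with library sizes re-centred (adjusted p = 0.109), with TPM (0.0534 and 0.158) and with protein-coding transcripts only (0.0787). Eef1akmt1 and Eef1akmt4 had 0.66 ± 0.29 and 0.37 ± 0.23 and did not pass.

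**Figure D3:**
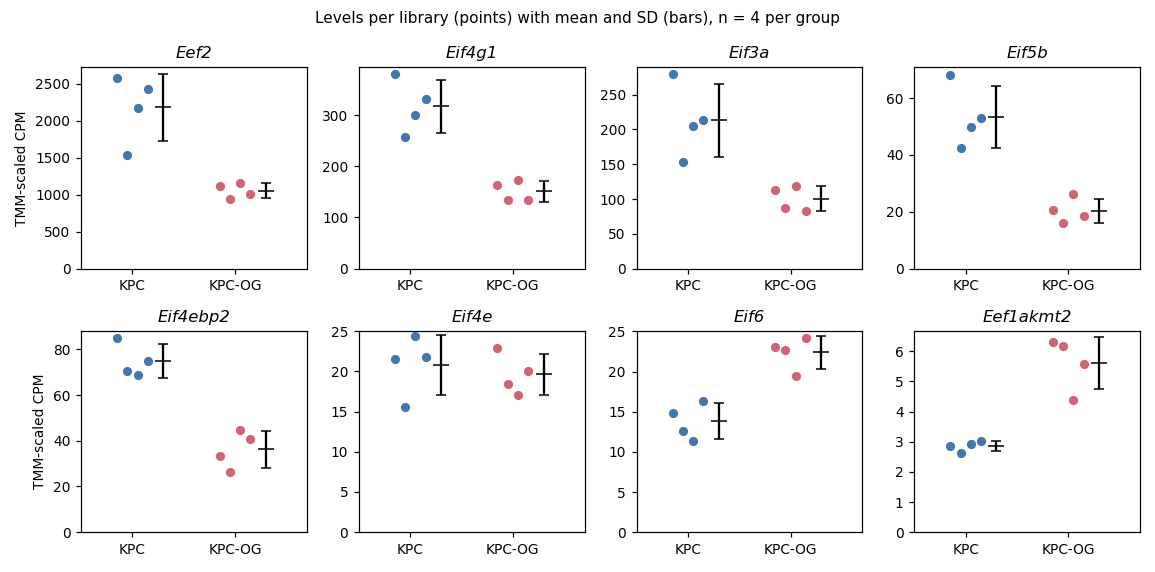
TMM-scaled CPM of 8 genes in each library (points) with the mean and SD of 4 libraries per group (bars). The KPC-OG points lie below the KPC points for Eef2, Eif4g1, Eif3a, Eif5b and Eif4ebp2, overlap them for Eif4e, and lie above them for Eif6 and Eef1akmt2.

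Of the 12 genes of cap binding, helicase and scaffold, 3 were lower and 9 did not pass. That is 25% lower, against 16.6% of all tested genes. Eif4g1, the scaffold that bridges cap, helicase and eIF3 (ENSMUSG00000045983, chromosome 16, 20668313 to 20692884, GRCm38), was 380, 257, 299 and 332 CPM in KPC and 163, 134, 173 and 134 CPM in KPC-OG. The groups were far apart, and Eif4g1 fell by 1.07 ± 0.18 (edgeR adjusted p = 0.0018), a level 2.10-fold lower. Eif4e, which encodes the cap-binding protein, was 21.6, 15.6, 24.4 and 21.8 CPM in KPC and 23.0, 18.4, 17.1 and 20.1 CPM in KPC-OG. Its groups overlapped throughout (-0.08 ± 0.16, edgeR adjusted p = 0.725), and its sign turned with TPM and a pseudocount of 1 (0.057). The difference between the changes of Eif4g1 and Eif4e was not tested.

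Eif4g2, the relative of Eif4g1 that supports cap-independent initiation, fell by 0.68 ± 0.16 (edgeR adjusted p = 0.01) from 331 ± 46.6 to 206 ± 20.3 CPM (SD, n = 4). Eif4b, a cofactor of the helicase, fell by 0.54 ± 0.17 (edgeR adjusted p = 0.0323), from 265, 160, 214 and 212 CPM to 157, 140, 142 and 146 CPM, and its call was lost without any single library other than KPC 2 and KPC-OG 3 (adjusted p up to 0.0863). Both calls were lost with TPM, and that of Eif4b also with library sizes re-centred, with no filter and without KPC-OG 2 and KPC-OG 3. The 9 other genes of this group did not pass, with log2 fold changes from -0.45 to 0.91. Among them, the helicase gene Eif4a2 had -0.45 ± 0.16 (edgeR adjusted p = 0.0585, and 0.0303 with the replicate number as a block), and 0.08 with protein-coding transcripts only. Its paralogue Eif4a1 was 91.1, 79.1, 87.3 and 76.7 CPM in KPC and 102, 102, 92.9 and 92.6 CPM in KPC-OG, higher in each KPC-OG library by a small margin (0.22 ± 0.12, edgeR adjusted p = 0.181). Eif4e3, a cap-binding relative of eIF4E, was 1.15, 3.76, 4.51 and 2.70 CPM in KPC and 5.02, 5.86, 4.78 and 6.73 CPM in KPC-OG (0.91 ± 0.33, edgeR adjusted p = 0.0543).

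Of 3 tested genes whose proteins bind eIF4E, 2 were lower (66.7%, against 16.6% of all tested genes). Both encode repressors that sequester eIF4E when mTORC1 is inactive. Eif4ebp2 was 85.2, 70.4, 69.0 and 75.1 CPM in KPC and 33.5, 26.5, 44.6 and 40.6 CPM in KPC-OG, without overlap, and fell by 1.05 ± 0.17 (edgeR adjusted p = 0.00174). Eif4ebp1 was 57.1, 34.6, 36.6 and 39.7 CPM in KPC and 24.7, 17.4, 29.1 and 19.2 CPM in KPC-OG. It fell by 0.90 ± 0.21 (edgeR adjusted p = 0.00838), and the call was lost with TPM and a pseudocount of 1 (adjusted p = 0.0643). The transporter gene Eif4enif1, whose protein carries eIF4E into the nucleus, had -0.06 ± 0.12 and did not pass. Eif4ebp3 was below the filter, at 0 to 1.15 CPM in all libraries.

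Among the genes for start codon selection and subunit joining, 4 of 7 were lower and 3 did not pass. That is 57.1% lower, against 16.6% of all tested genes. Eif5b, the GTPase of subunit joining (ENSMUSG00000026083, chromosome 1, 37998010 to 38055579, GRCm38), was 68.2, 42.4, 49.9 and 52.9 CPM in KPC and 20.8, 16.01, 26.1 and 18.6 CPM in KPC-OG. The highest KPC-OG library was well below the lowest KPC library, and Eif5b fell by 1.39 ± 0.19 (edgeR adjusted p = 9.29e-04), a level 2.62-fold lower. Eif5, which triggers GTP hydrolysis on eIF2, fell by 0.73 ± 0.17 (edgeR adjusted p = 0.00812) from 129 ± 19.7 to 77.8 ± 12.6 CPM (SD, n = 4). Eif1ad, a relative of eIF1A, fell by 0.69 ± 0.17 (edgeR adjusted p = 0.011), and this call and that of Eif5 were lost with TPM and a pseudocount of 1. The Eif1ad call was also lost with library sizes re-centred, with the other pseudocount and without KPC-OG 2 and KPC-OG 3.

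Eif1ax, the X-linked gene of eIF1A, fell by 0.89 ± 0.14 (edgeR adjusted p = 0.00171), from 51.9, 34.6, 41.1 and 41.9 CPM to 26.1, 21.7, 23.1 and 20.7 CPM. Its reads moved between transcripts: the protein-coding one held 92.7% to 94.7% of them in KPC and 81.4% to 85.5% in KPC-OG, the rest being a retained-intron transcript of 416 bases. With a transcript length offset the Eif1ax value was -0.19 (adjusted p = 0.409), and with TPM it was -0.27 and 0.04 (pseudocounts of 0.1 and 1), so the Eif1ax call depended on how length was handled. Eif1, which guards the fidelity of start codon choice, was 38.01, 33.1, 43.8 and 23.5 CPM in KPC and 33.2, 26.8, 40.8 and 34.6 CPM in KPC-OG. Its groups overlapped (-0.03 ± 0.20, edgeR adjusted p = 0.929, with a sign that turned under 8 alternatives).

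Of the 6 genes that encode eIF2 or other carriers of initiator tRNA, 2 were lower and 4 did not pass. That is 33.3% lower, against 16.6% of all tested genes. Eif2s2, the beta subunit of eIF2, was 60.9, 38.7, 52.3 and 41.9 CPM in KPC and 26.9, 21.1, 34.2 and 21.6 CPM in KPC-OG, without overlap (-0.90 ± 0.20, edgeR adjusted p = 0.00645, lost with TPM and a pseudocount of 1 at 0.0602). Eif2d, which can deliver tRNA independently of eIF2, fell by 0.62 ± 0.13 (edgeR adjusted p = 0.00503) from 15.5 ± 1.65 to 10.04 ± 0.563 CPM (SD, n = 4), a call lost with library sizes re-centred and with TPM. Eif2s1, the alpha subunit that stress kinases phosphorylate, was 35.3, 26.3, 35.3 and 32.9 CPM in KPC and 33.1, 29.1, 28.2 and 28.5 CPM in KPC-OG. It did not pass (-0.12 ± 0.13, edgeR adjusted p = 0.485), and the difference between the changes of the alpha and beta subunits was not tested.

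The gamma subunit has an X-linked and a Y-linked gene. Eif2s3y was 0, 0.563, 19.1 and 17.4 CPM in KPC and 17.6, 0.492, 22.5 and 0.119 CPM in KPC-OG, that is near 0 in 2 libraries of each group. The Y-linked gene Ddx3y had the same pattern, with 1.15, 0, 47.5 and 36.1 CPM in KPC and 30.8, 0.0518, 30.1 and 0.179 CPM in KPC-OG. Eif2s3x was 133, 80.4, 80.7 and 78.7 CPM in KPC and 60.6, 75.8, 47.9 and 74.7 CPM in KPC-OG. All KPC-OG libraries lay below all KPC libraries, but the test was not passed (-0.52 ± 0.21, edgeR adjusted p = 0.0827). Within KPC-OG, the 2 libraries with little Eif2s3y had the higher Eif2s3x levels, whereas in KPC this held for KPC 1 and not for KPC 2. Of the 20-base words of Eif2s3x, 36.2% also occur in other genes (35.1% in Gm2223). Eif2a, which is not a subunit of eIF2, had -0.34 ± 0.13 and did not pass.

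eIF2B, the exchange factor that recharges eIF2, had 3 of 5 subunit genes lower and 2 that did not pass. That is 60% lower, against 16.6% of all tested genes. Eif2b1, the regulatory alpha subunit, was 18.1, 21.8, 23.6 and 18.9 CPM in KPC and 11.8, 10.3, 14.3 and 9.20 CPM in KPC-OG (-0.86 ± 0.16, edgeR adjusted p = 0.00356). Eif2b5, the catalytic epsilon subunit, fell by 0.72 ± 0.14 (edgeR adjusted p = 0.00371) and Eif2b2, the beta subunit, by 0.53 ± 0.13 (edgeR adjusted p = 0.0108). These 3 calls were lost with TPM, and that of Eif2b2 also with library sizes re-centred, with a length offset and without KPC-OG 2 and KPC-OG 3. Eif2b3 had -0.35 ± 0.18. Eif2b4 was listed at 0 in KPC 2 and at 5.92, 7.70 and 11.5 CPM in the other KPC libraries, and had -0.31 ± 0.74.

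eIF3, the largest initiation factor, organises the other factors on the small subunit. Of its 14 genes 6 were lower (42.9%, against 16.6% of all tested genes) and 8 did not pass. Eif3a, its largest subunit (ENSMUSG00000024991, chromosome 19, 60761117 to 60790658, GRCm38), was 279, 153, 205 and 214 CPM in KPC and 112, 87.4, 119 and 82.9 CPM in KPC-OG. It fell by 1.09 ± 0.21 (edgeR adjusted p = 0.00351), a level 2.12-fold lower, with no overlap. Eif3b, the other core subunit that binds RNA, fell by 0.85 ± 0.14 (edgeR adjusted p = 0.00209) from 68.5 ± 10.3 to 37.97 ± 4.21 CPM (SD, n = 4), a call lost with TPM and a pseudocount of 1. Eif3c fell by 0.56 ± 0.15 (edgeR adjusted p = 0.0154) and Eif3h by 0.45 ± 0.13 (edgeR adjusted p = 0.0237). The calls of Eif3c and Eif3h were lost with library sizes re-centred, with TPM and without KPC-OG 2 and KPC-OG 3, and that of Eif3h also when any single library other than KPC 2 and KPC-OG 3 was left out (adjusted p up to 0.0679). With the replicate number as a block Eif3d, Eif3i and Eif3m were also called lower (adjusted p = 0.0358, 0.0445 and 0.0167, against 0.0503, 0.059 and 0.0605 without it). Eif3k was 44.5, 36.1, 35.0 and 42.6 CPM in KPC and 39.2, 42.6, 37.1 and 41.9 CPM in KPC-OG, with 0.02 ± 0.12.

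Eif3j1, a loosely bound eIF3 subunit (ENSMUSG00000027236, chromosome 2, 122028546 to 122056598, GRCm38), had the lowest fold change of all 62 tested members. It was 96.4, 48.5, 65.0 and 69.7 CPM in KPC and 7.58, 7.41, 12.8 and 7.32 CPM in KPC-OG, and fell by 3.01 ± 0.26 (edgeR adjusted p = 4.42e-04), a level 8.04-fold lower. The files list 2 transcripts for it. A non-coding processed transcript of 594 bases was at 85.2, 52.7, 64.9 and 76.2 TPM in KPC and 3.45, 3.83, 7.91 and 2.61 TPM in KPC-OG. The protein-coding transcript of 5413 bases was at 2.88, 2.74, 2.98 and 1.95 TPM in KPC and 3.04, 3.49, 2.77 and 3.93 TPM in KPC-OG. The short transcript was thus far lower in every KPC-OG library, while the TPM of the coding transcript overlapped between the groups. These TPM were not re-centred on the typical gene. Without re-centring, Eif4h had a mean of 30.7 TPM in KPC and 99.3 TPM in KPC-OG, at a log2 fold change of 0.05. Eif3k had 41.5 and 133 TPM at 0.02. Relative to the typical gene the coding transcript was lower too. With protein-coding transcripts only, Eif3j1 fell by 1.23 (edgeR adjusted p = 0.00276).

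Its near-identical copy Eif3j2 was 62.1, 56.7, 69.5 and 55.9 CPM in KPC and 26.2, 18.1, 36.3 and 18.7 CPM in KPC-OG (-1.30 ± 0.22, edgeR adjusted p = 0.00201). Of the 20-base words of Eif3j2, 96.3% also occur in other genes, with 96.3% in Eif3j1, so most of the length of Eif3j2 cannot be told apart from Eif3j1. Of the words of Eif3j1, 55.25% also occur in other genes, with 39.0% in Eif3j2. Summed with Eif3j2 alone, Eif3j1 fell by 1.96 (edgeR adjusted p = 6.17e-04).

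**Figure D4:**
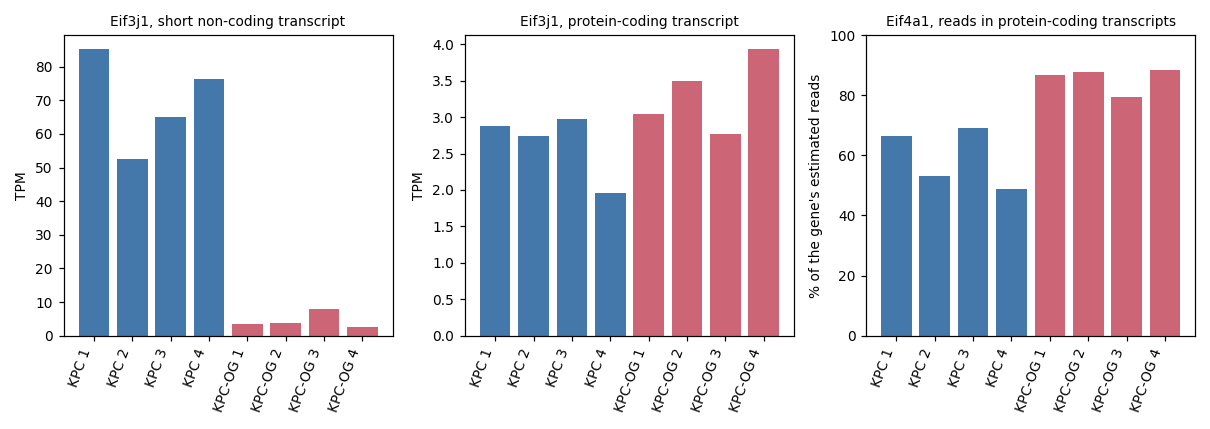
TPM per library of the short non-coding transcript (left) and the protein-coding transcript (middle) of Eif3j1, and the percentage of the estimated reads of Eif4a1 in protein-coding transcripts (right). The short transcript stands at 52.7 to 85.2 TPM in KPC and at 2.61 to 7.91 TPM in KPC-OG, while the coding transcript overlaps between the groups. TPM is as deposited and was not re-centred on the typical gene.

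For further members the split of reads between coding and other transcripts did not overlap between the groups. The split itself was not tested. How many of all genes show such a split was not computed, so it cannot be called particular to the members. In Eif4a1 protein-coding transcripts held 48.7% to 69.0% of the estimated reads in the KPC group against 79.5% to 88.2% in KPC-OG, without overlap. With protein-coding transcripts only, Eif4a1 was higher in KPC-OG by 0.78 log2 units (edgeR adjusted p = 0.00922), a call that the whole gene did not reach. In Eef1b2 the share was 18.2% to 32.6% in KPC and 32.9% to 37.4% in KPC-OG, with almost no gap. In Eef2k and Eif3f it was lower in every KPC-OG library than in every KPC library, at 84.3% to 92.4% against 93.3% to 99.0% and at 90.7% to 94.4% against 95.4% to 97.8%. These are splits estimated by the authors' software among overlapping transcripts, and their error is not given in the files.

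The last group holds eIF5A and eIF6. Eif5a, whose hypusine-bearing protein eases elongation through difficult stretches, was 165, 125, 117 and 154 CPM in KPC and 92.0, 74.7, 102 and 77.6 CPM in KPC-OG, without overlap (-0.70 ± 0.17, edgeR adjusted p = 0.00961, lost with TPM and a pseudocount of 1). Eif6, which keeps the large subunit from joining too early and acts in its assembly (ENSMUSG00000027613, chromosome 2, 155819832 to 155826925, GRCm38), was 14.9, 12.6, 11.4 and 16.4 CPM in KPC and 23.1, 22.7, 19.5 and 24.2 CPM in KPC-OG. All KPC-OG libraries lay above all KPC libraries, and Eif6 rose by 0.69 ± 0.14 (edgeR adjusted p = 0.00503), a level 1.61-fold higher. The Eif6 call was lost with library sizes re-centred (adjusted p = 0.166) and with TPM and a pseudocount of 0.1 (0.162). Eif5a2, a second form of eIF5A, was at 0 to 3.57 CPM in all libraries and did not pass (0.30 ± 0.63).

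A share of one paralogue in its set does not depend on the scaling between libraries, and 6 such shares of summed TPM were compared. Eif4a2 held 72.9%, 73.3%, 67.8% and 69.7% of the Eif4a1 and Eif4a2 total in KPC and 61.4%, 57.7%, 65.7% and 58.8% in KPC-OG. Every KPC-OG library was lower, with a mean difference of -10.06 percentage points (exact two-sided permutation p = 0.0286, adjusted p = 0.0857). Eif4g3 held 9.49%, 12.3%, 10.9% and 10.8% of the Eif4g1 and Eif4g3 total in KPC and 13.0%, 19.4%, 17.2% and 21.6% in KPC-OG. Every KPC-OG library was higher, by 6.94 percentage points on average (exact two-sided permutation p = 0.0286, adjusted p = 0.0857). The smallest p that 4 against 4 libraries allow is 0.0286, so neither share passed after adjustment over the 6 sets. With libraries paired by replicate number, the exact sign-flip permutation p was 0.125 for both shares, the smallest that 4 pairs allow. The shares of Eef1a2, Eif1b, Eif5a2 and Eif4ebp1 in their sets had larger p-values (exact permutation p = 0.0857 to 0.971), and those of Eef1a2 and Eif5a2 stayed under 1% in every library.

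**Figure D5:**
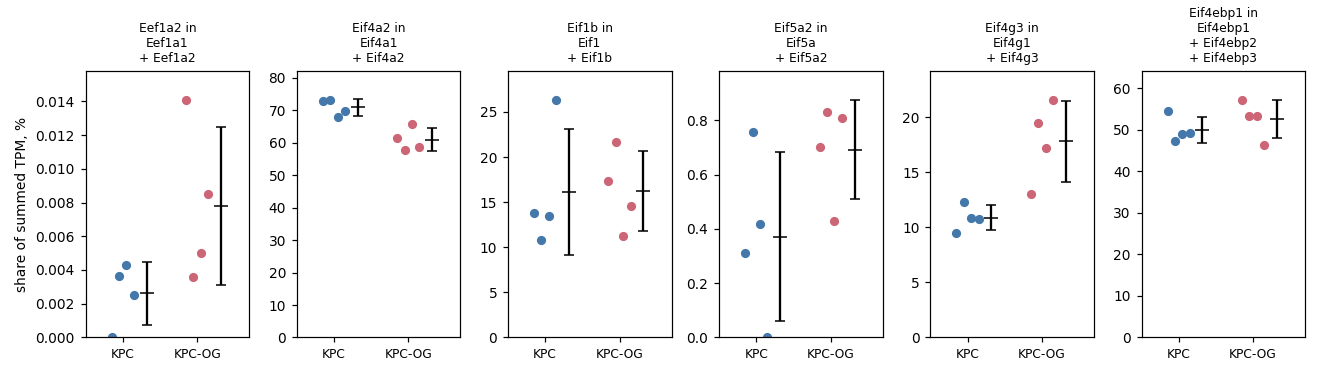
Share of 1 paralogue in the summed TPM of its set (%) in each library (points), with the mean and SD of 4 libraries per group (bars). The groups do not overlap for Eif4a2 (67.8% to 73.3% in KPC, 57.7% to 65.7% in KPC-OG) and Eif4g3, and overlap for the other 4 shares.

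Since many members moved together, their promoters were searched for short motifs. RefSeq promoter windows of GRCm38.p6, 250 bases before to 50 bases after the annotated start, were matched by symbol for 48 of the 64 genes (62 windows). CACGTG, the E-box bound by Myc and related factors, was found in 24.2% of the member windows (13 of 48 genes) and in 7.15% of the 32851 windows of all genes (2187 of 27025 genes). All genes here include many beyond the 14267 tested for expression, and some members have several windows that overlap. The difference between members and all genes was not tested. It was found in 25.9% of the windows of members called lower (5 of 20 genes) and in 22.9% of those of other members (8 of 28 genes), so the order differed between windows and genes. CCAAT or its reverse complement was in 24.2% of member windows and 37.4% of all windows, and TATAAA or its reverse complement in 8.06% and 13.6%. Both strands were searched, CACGTG being its own reverse complement. The 100 bases before the start are printed 5′ to 3′ on the gene's strand, with the motifs in capitals. They are given for 3 members that fell (Eef2, Eef2k and Eif4g1) and 1 that did not pass (Eif4e). All were chosen because they hold the E-box. Eef2k and Eif4e have other annotated starts, and the 100 bases before those hold none of the 3 motifs. The Eif4g1 start lies at 20672727, inside the gene span given above.
Eef2, chr10:81176531-81176630, plus strand: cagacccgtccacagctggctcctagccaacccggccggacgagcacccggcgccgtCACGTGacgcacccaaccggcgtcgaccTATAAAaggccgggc
Eef2k, chr7:120842731-120842830, plus strand: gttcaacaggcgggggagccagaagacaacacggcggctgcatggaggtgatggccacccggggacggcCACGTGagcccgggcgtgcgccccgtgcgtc
Eif4g1, chr16:20672627-20672726, plus strand: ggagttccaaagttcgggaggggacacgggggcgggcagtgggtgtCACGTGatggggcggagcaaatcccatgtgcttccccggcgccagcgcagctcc
Eif4e, chr3:138527168-138527267, plus strand: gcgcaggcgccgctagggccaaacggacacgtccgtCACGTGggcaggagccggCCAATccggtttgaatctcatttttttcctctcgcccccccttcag
That all 4 sequences hold the E-box follows from how they were chosen and compares nothing between genes that fell and Eif4e. The Eef2 sequence is the one of these 4 that holds TATAAA. A match is a stretch of letters and does not show that a factor binds there.

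Many genes that act on the factors or belong to the eIF2 stress response were also lower. Calls for genes that are not members come from the main fit alone and were not followed through the alternatives. Of 12 genes of the eIF2 kinase and stress response list 8 were lower and 4 did not pass, with a median log2 fold change of -0.85. That is 66.7% lower, against 16.6% of all tested genes. Eif2ak3, the endoplasmic reticulum kinase PERK, was 149, 106, 103 and 118 CPM in KPC and 70.9, 44.8, 62.5 and 49.6 CPM in KPC-OG (-1.07 ± 0.19, edgeR adjusted p = 0.00235). Ppp1r15b, a phosphatase subunit that reverses eIF2 phosphorylation, fell by 1.22 ± 0.21 (edgeR adjusted p = 0.00235), and Asns, asparagine synthetase, by 1.86 ± 0.32 (edgeR adjusted p = 0.00242). Of 15 genes of mTORC1 and the eIF4 kinases 9 were lower (60%), 1 was higher (6.67%) and 5 did not pass, with a median of -0.68. Of all tested genes 16.6% were lower and 17.4% higher. Larp1, which binds the messages of the translation machinery, was 407, 256, 323 and 352 CPM in KPC and 106, 73.5, 132 and 80.1 CPM in KPC-OG (-1.77 ± 0.23, edgeR adjusted p = 7.74e-04). Rps6kb1, the S6 kinase, fell by 1.01 ± 0.15 and Mtor by 0.83 ± 0.14 (edgeR adjusted p = 0.00141 and 0.00226). Mknk1 and Mknk2, the kinases of eIF4E, went opposite ways, with -1.39 ± 0.24 and 0.68 ± 0.17 (edgeR adjusted p = 0.00225 and 0.0124).

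Of 16 genes of poly(A) binding, termination and recycling 8 were lower (50%), 1 was higher (6.25%) and 7 did not pass, with a median of -0.53. Of all tested genes 16.6% were lower and 17.4% higher. The release factor gene Gspt1 fell by 1.05 ± 0.13 (edgeR adjusted p = 7.52e-04) from 93.4, 77.0, 86.5 and 80.9 CPM to 44.7, 36.0, 45.7 and 36.9 CPM. Paip2b, an inhibitor of the poly(A) binding protein, fell by 1.60 ± 0.28 and Pabpc4, a poly(A) binding protein, by 1.57 ± 0.29 (edgeR adjusted p = 0.00249 and 0.0033). Dhps, the enzyme that starts hypusine formation on eIF5A, was the gene that rose, by 0.57 ± 0.20 (edgeR adjusted p = 0.0434). Its level was low, at 2.65 to 2.86 CPM in KPC and 4.06 to 4.25 CPM in KPC-OG. Dohh, which completes hypusine formation, fell by 0.60 ± 0.17 (edgeR adjusted p = 0.0215). Of 9 mitochondrial translation factor genes, Gfm1 was lower (-0.58 ± 0.16, edgeR adjusted p = 0.0192) and 8 did not pass, with a median of -0.07. That is 11.1% lower, under the 16.6% of all tested genes.

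Neighbouring groups of the same machinery had other counts on the same scale. Of 79 tested genes of cytosolic ribosomal proteins 8 were higher (10.1%) and 3 lower (3.80%), with a median of 0.15. Of all tested genes 17.4% were higher and 16.6% lower. Of 21 aminoacyl-tRNA synthetase genes other than Lars2, 17 were lower (81.0%) and 4 did not pass, with a median of -0.88. The factors, with 26 of 62 lower and a median of -0.38, lay between these groups, and the differences between the lists were not tested.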

How the data were processed

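Libraries were made from total RNA after ribosomal depletion, per the labels' protocols. Sailfish 0.6.3 (20-base words, 1000 iterations, Ensembl release 76 mouse transcripts) was the authors' quantifier, per the file headers. Other tools in the submitters' processing notes, which give them no role, are bcl2fastq, STAR (2.0.4b), edgeR and limma. No genome build is named in those sources, so gene positions were taken from GENCODE M21 (GRCm38). The deposited files give, per transcript, an estimated count of reads and a TPM, the authors' abundance per length scaled to the same total in each library. The deposited transcript length, in bases, entered only an offset.

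Of 86127 transcripts, 83827 matched a gene. Estimated counts were summed per gene and rounded. The test was edgeR 4.0.16 quasi-likelihood (R 4.3.3) on all 8 libraries with TMM, filterByExpr, no covariate and Benjamini-Hochberg adjustment over 14267 genes. Standard errors were derived from the fold change and its F statistic. TMM factors were 0.483 to 0.653 in KPC and 1.14 to 2.28 in KPC-OG. Libraries with the same replicate number in the 2 groups had r = 0.138 to 0.294 over 5000 genes in their deviations from the group mean. Pairs with different numbers had r = -0.292 to 0.209, so the ranges overlapped. Each KPC-OG library had its highest r with the KPC library of its own number. Whether the number marks a real block was not tested, and the main test leaves it out. A fit with the number as a block was run as an alternative. DESeq2 1.42.0, limma 3.58.1, other scalings, other transcript sums and leaving out libraries were alternatives. Those with near-identical copies summed or without KPC-OG 2 and KPC-OG 3 were chosen after seeing the data. Reads without molecular identifiers are not independent molecules.

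The members, lists and roles were chosen with earlier results of these data known. Values are given for every member of roles with 6 or fewer genes. In larger roles they are given for at most 5 members past the test, by smallest adjusted p, and for the 2 with the highest mean TPM. They are also given for members called higher, for members whose call changed under another normalization or unit, and for at most 3 genes past the test of each pathway list. Eif4e, Eif4e3, Eif4a1, Eif3d, Eif3i, Eif3m, Eif3f, Mtor, Mknk2, Dhps and Dohh were named after their values were seen.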

Additional observations from a re-analysis of the deposited data

Results flagged for a closer look

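Among 106 groups of 4 libraries of the named genes, 6 held a library whose gap to the nearest other was, as a share of the group's range, above Dixon's critical value, and chance gives about 1 in 20 such groups. Eif2s3x was 133 CPM in KPC 1 against 80.7 in the nearest KPC library, and Eif2b3 was 8.59 CPM in KPC 1 against 6.42. In KPC-OG the library that stood apart was KPC-OG 3 each time. It had 12.8 CPM of Eif3j1 against 7.58 in the nearest library, 8.71 CPM of Eif2b4 against 4.17, 4.71 CPM of Eif2b3 against 5.48, and 1.64 CPM of Eif5a2 against 2.36.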

How the results depend on the processing

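Against 26 lower and 2 higher members, library sizes alone gave 1 lower and 56 higher (all genes 0.694% and 91.7%), and re-centred on the median gene 17 and 0 (all genes 9.32% and 6.38%). DESeq2 gave 34 and 3 (19.1% and 19.0%), and a transcript length offset 21 and 2 (13.2% and 16.5%). TPM with a pseudocount of 1 gave 8 and 1 (11.2% and 6.90%), so that the share of lower members was close to that of all genes, and with a pseudocount of 0.1 gave 13 and 0 (7.17% and 4.11%). With the replicate block 30 were lower and 2 higher (all genes 16.9% and 17.4%). Eif3d, Eif3i, Eif3m and Eif4a2 were gained, and the block changed no other call. Leaving out 1 library gave 22 to 30 lower and 2 to 4 higher members. Of all genes, 12.1% to 17.4% were then lower and 12% to 19.7% higher. The 4 higher came without KPC 3, where Eef1akmt1 and Eif4e3 were added. Of the 28 calls, 24 held without each single library. Values of single members under library sizes alone are not listed, since all genes shift together there.

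The other reversals concerned Eif1ax and members that did not pass. With TPM and a pseudocount of 1 the log2 fold changes were 0.064 for Eef1b2, 0.18 for Eef1d, 0.42 for Eif1, 0.045 for Eif1ax, 0.049 for Eif2s1, -0.33 for Eif2s3y, 0.041 for Eif4a2, 0.057 for Eif4e and -0.61 for Eif5a2. With a pseudocount of 0.1 they were 0.071 for Eif1, 0.49 for Eif2b4, -0.023 for Eif2s3y and -0.075 for Eif3k. With library sizes re-centred Eif2s3y had -0.27 and Eif3k -0.031. With limma-voom Eif1 had 0.022, Eif2b4 0.81 and Eif2s3y -0.34. With protein-coding transcripts only Eef1b2 had 0.34, Eif2s3y -0.22, Eif4a2 0.083 and Eif4enif1 0.037. Eif1 had 0.0076 without a filter and 0.14 with a length offset, and Eif2s3y -0.28 with the replicate block. Without KPC-OG 2 and KPC-OG 3, Eif2s3y had -0.010 and Eif4e 0.072. Leaving out 1 library gave -0.18 to 0.094 for Eif1, -0.56 to 0.73 for Eif2s3y, -0.037 to 0.077 for Eif3k, -0.74 to 0.20 for Eif2b4, -0.16 to 0.89 for Eif5a2 and -0.12 to 0.012 for Eef1d. The Eif1b share differed by -1.72 to 3.52 percentage points. The cause of these changes was not tested. The other 5 paralogue shares kept their direction and did not pass after adjustment in any alternative run. Depth limits Eef1akmt2, Eef1a2 and Eif4ebp3, which had few reads in KPC.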
